A study of Mus musculus with 2 samples.

Results

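The ADAM sheddases studied here are the products of Adam8, Adam9, Adam10, Adam12, Adam15, Adam17 and Adam19. These 7 genes were taken by symbol from the 26037 genes of the deposited expression table, and each had 1 row. The table holds 2 libraries of RNA from mouse bone marrow-derived cells, 1 labelled control and 1 labelled MMP9 knockout, so each group had n = 1. Marrow came from C57BL/6 mice of 6 to 8 weeks and was grown with 10% serum and M-CSF, the macrophage growth factor, at 5 ng/ml. Its non-adherent cells were cultured for 3 days with 30 ng/ml of M-CSF, after which the adherent macrophages of both groups received RANKL, the cytokine that drives osteoclast formation, for 3 days. Cultures without RANKL were not analysed here. The headings of the columns add "NCsh" (control) or "sh" (knockout), letters that the labels do not explain, so the sources used here do not say whether the Mmp9 gene was deleted or its transcript silenced. How many mice gave the marrow is likewise not stated.

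ADAM proteins (a disintegrin and metalloproteinase) are membrane-anchored zinc proteases. They are made as inactive precursors and lose their prodomain, in several members to furin-type convertases. They then cut other membrane proteins close to the cell surface, which releases soluble ectodomains. ADAM17, also called TACE, releases tumour necrosis factor from macrophages and reaches the surface with the help of the iRhom proteins. ADAM10 makes the cut in ligand-bound Notch that precedes gamma-secretase, and is carried by tetraspanins of the TspanC8 group. ADAM8 is abundant in myeloid cells, and ADAM12 and ADAM19 (the meltrins alpha and beta) are best known from muscle and other mesenchymal tissue. The comparison asks how transcripts of these proteases, of their carriers and inhibitors, and of the proteins they cut differ between the control library and the one labelled MMP9 knockout.

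Levels below are normalised read counts: the deposited log2 values converted back, with no division by gene length, so that 1 read is worth 0.0248 in the control against 0.0238 in the knockout. The libraries held 20678441 and 17741432 such reads. Parentheses after a fold give its 95% exact binomial interval, which covers counting error only and treats reads as independent, although several reads can come from the same molecule when no molecular identifier is used. A gene was compared when its mean over the libraries was at least 1, which held for 11126 genes. A low gene can pass through the library where it is high alone, which then fixes its direction, so counted genes past 2-fold that were under 1 in the other library are pointed out. It counted as past 2-fold on log2(level + 1), a scale that understates differences of low genes. Printed folds use no pseudocount. Of all compared genes 4.0% were at least 2-fold higher in the knockout and 9.58% lower, shares to set beside each count below. With 1 library per group no difference has a replicate check and no p-value can be given. The check of the targeted gene gave Mmp9, the matrix metalloproteinase for which the knockout is named, at 139.4 in the control against 3.87 in the knockout. The labels call the cells primary osteoclasts, and the osteoclast markers had reads in both libraries. Of 10 osteoclast markers, a list that holds Mmp9 itself, 10 were at least 2-fold lower in the knockout (summed level 6824 and 395), 3 of them passing through the control alone. Of 7 compared macrophage markers 5 were higher, 1 of these passing through the knockout alone, and 1 was lower (summed level 1008 and 1362 over the list of 10). The summed level was 0.497 and 1.64 for 10 granulocyte markers, 0.547 and 0.451 for 10 stromal markers, 0.0497 and 0.309 for 6 B cell markers and 0.621 and 0.333 for 5 endothelial markers. It was 1.44 and 7.72 for 7 T and NK cell markers, all but 0.0497 of it Lck, and 16.2 and 2.42 for 6 dendritic cell markers. The T cell genes Cd3e, Cd4 and Cd8a, the granulocyte genes Mpo, Elane and Ly6g and the stromal genes Col1a1 and Col1a2 had no read in either library. In such bulk RNA fewer cells of a type and less RNA per cell cannot be told apart. The part of the osteoclast and macrophage differences in the ADAM values was not tested.

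The upstream sequences of the 2 members past 2-fold, Adam15 and Adam17, are shown beside those of Adam8 and Adam10, the compared members with the smallest ratios. Each runs 5′ to 3′ on the gene's strand and holds the 250 bases before a RefSeq transcript start on GRCm38.p6. They cover chr3:89350029-89350278 (minus strand), chr12:21373633-21373882 (minus strand), chr7:139992563-139992812 (minus strand) and chr9:70678732-70678981 (plus strand). Capitals mark matches, on either strand, to the GC box GGGCGG and to the ETS core CCGGAA. RefSeq entries were matched by symbol for 5 of the 7 genes, with 3 starts for Adam19.
Adam15: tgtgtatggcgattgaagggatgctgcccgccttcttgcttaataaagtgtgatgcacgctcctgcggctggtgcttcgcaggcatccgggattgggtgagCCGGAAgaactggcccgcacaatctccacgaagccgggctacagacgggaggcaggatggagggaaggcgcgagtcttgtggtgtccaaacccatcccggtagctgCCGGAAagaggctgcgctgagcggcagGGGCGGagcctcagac
Adam17: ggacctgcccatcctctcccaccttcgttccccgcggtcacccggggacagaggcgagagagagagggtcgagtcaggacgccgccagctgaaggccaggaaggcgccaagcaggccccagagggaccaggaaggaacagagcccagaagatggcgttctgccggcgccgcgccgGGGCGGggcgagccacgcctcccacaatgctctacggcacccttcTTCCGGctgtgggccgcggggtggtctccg
Adam8: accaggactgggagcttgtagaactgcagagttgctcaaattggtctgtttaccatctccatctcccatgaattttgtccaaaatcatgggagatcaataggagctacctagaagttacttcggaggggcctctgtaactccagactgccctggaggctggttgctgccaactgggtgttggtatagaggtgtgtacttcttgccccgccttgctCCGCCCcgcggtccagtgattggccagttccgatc
Adam10: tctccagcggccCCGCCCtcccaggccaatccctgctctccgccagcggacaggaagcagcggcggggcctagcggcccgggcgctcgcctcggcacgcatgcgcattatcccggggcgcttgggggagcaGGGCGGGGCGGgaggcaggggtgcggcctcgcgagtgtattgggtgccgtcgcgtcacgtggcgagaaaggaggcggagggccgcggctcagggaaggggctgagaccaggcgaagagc

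The GC box was found in each of these 4 windows, with 1 match for Adam15, Adam17 and Adam8 and 3 for Adam10, and 32.7% of 32851 windows of the same length hold it. The ETS core, a motif chosen after the sequences had been read, had 2 matches for Adam15 and 1 for Adam17 and no match for Adam8 or Adam10. It is present in 12% of all windows, and no base was shared between matches to the 2 motifs in these 4 windows. The interferon response core (GAAA, 2 bases of any kind, GAAA), the STAT site TTCNNNGAA, the AP-1 site TGANTCA and the TATA box TATAAA had no match in the 4 windows, and 2.98%, 7.02%, 6.75% and 12.4% of all windows hold them. GC content was 62.0% for Adam15, 70.4% for Adam17, 52.8% for Adam8 and 74.0% for Adam10, against a median of 52.4% over all windows. A match is a run of letters and does not show binding.

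Of the 7 genes, 5 had reads and were higher in the knockout library, and 2, Adam12 and Adam19, had no read in either. Adam15 and Adam17 were higher by at least 2-fold, 2 of the 5 compared members, and 4.0% of all compared genes were. No member was lower by at least 2-fold, and 9.58% of all compared genes were. These shares stand for 445 genes higher and 1066 lower, and with the knockout scaled to equal sums they would be 674 and 684, while the 2 members past 2-fold were the same. The 5 log2 ratios lay between 0.18 and 1.37 with a median of 0.59, while all compared genes had a median of -0.16 and quartiles at -0.55 and 0.17. A log2 ratio above 0 was seen in 5 of 5 compared members and in 37.3% of all compared genes. The interval of the fold lay wholly above 1 for the same 5 members and for 26.5% of all compared genes. Both shares hold for the deposited scaling only, and scaling the knockout upward would raise them. Each of the 5 passed the filter in both libraries, so none was compared only for being high in the knockout. Adam12 and Adam19 were not compared.

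**Figure D1:**
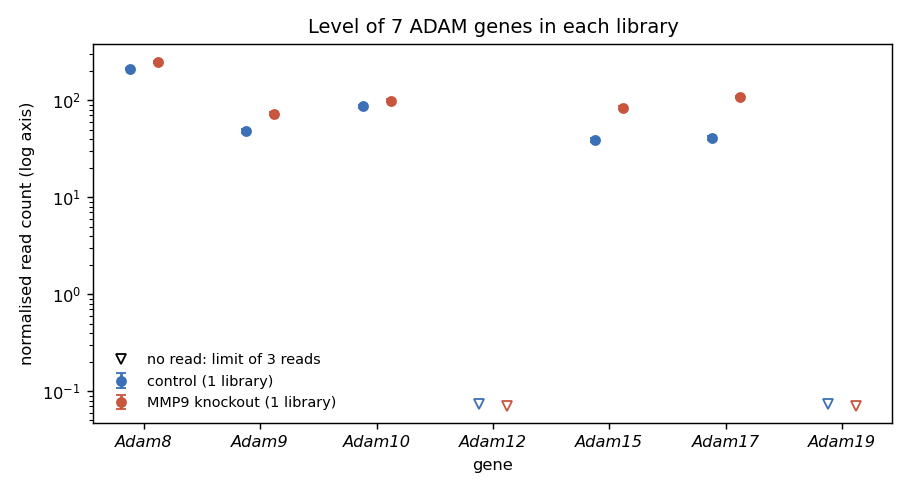
Normalised read count (log axis) of each of the 7 genes in the control library (blue) and the knockout library (red), with exact 95% Poisson intervals, mostly smaller than the points. Open triangles stand for no read and are drawn at the limit of 3 reads; 5 genes lie between 39.1 and 249, and Adam12 and Adam19 are at the limit in both.

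Adam17, the TNF-releasing enzyme, had the largest ratio of the members. Its level was 41.1 in the control (1656 reads) against 107.8 in the knockout (4537 reads), 2.62-fold higher (2.48 to 2.77). The log2 ratio of 1.37 stood above that of 97.4% of compared genes. Adam17 (ENSMUSG00000052593) lies on the minus strand of chromosome 12, from 21373632 down to 21323509 on GRCm38, and its longest annotated transcript has 20 exons and 4469 bases. It shares 311 bases with Iah1 on the opposite strand, and whether strand was used in counting is not stated. Iah1 was 23.2 in the control against 15.6 in the knockout, so its level differed in the other direction. The nearest compared genes on each side were within 1.5-fold: Cpsf3, a subunit of the mRNA 3′ processing complex, was 87.02 and 105.2, and Ywhaq, a 14-3-3 protein gene, was 47.2 and 58.1.

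Adam15 encodes metargidin, an ADAM with an adhesive disintegrin domain. Its level was 39.1 in the control (1574 reads) against 84.1 in the knockout (3540 reads), 2.15-fold higher (2.03 to 2.28). That put its log2 ratio of 1.09 above 96.4% of compared genes and just past the 2-fold line. The gene (ENSMUSG00000028041) lies on the minus strand of chromosome 3, from 89349996 down to 89338542, with 24 exons in its longest transcript. An annotated antisense gene, 4731419I09Rik, covers 9290 bases of it and has no row in the table, so reads of the pair cannot be told apart without strand. On either side, the ephrin gene Efna1 was 5.52 and 1.47 and the transcription factor gene Zbtb7b 28.7 and 42.3, one lower and one higher in the knockout.

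Adam9 (ENSMUSG00000031555, chromosome 8, 24949611 to 25016927, minus strand) encodes meltrin gamma, a widely expressed sheddase. It was 48.3 in the control (1942 reads) against 73.0 in the knockout (3073 reads), 1.51-fold higher (1.43 to 1.60). The difference was under 2-fold, and its log2 ratio of 0.59 is the member median. The gene begins 0.284 kb from Tm2d2, which was 19.4 and 17.4.

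Adam8 and Adam10 were the compared members that differed least. Adam8 (ENSMUSG00000025473, chromosome 7, 139978932 to 139992562, minus strand) was 213 in the control (8572 reads) against 249 in the knockout (10474 reads), 1.17-fold higher (1.14 to 1.20). Adam10 (ENSMUSG00000054693, chromosome 9, 70678997 to 70780229, plus strand) was 87.3 (3512 reads) and 99.2 (4175 reads), 1.14-fold higher (1.09 to 1.19). Their log2 ratios of 0.22 and 0.18 exceeded those of 77.7% and 75.5% of compared genes. Both differences were larger than counting error, and no replicate shows whether they exceed the spread between cultures. The nearest compared genes on either side of Adam10 differed in opposite directions: Gm10642, 21.1 kb away, was 2.58 and 1.14, and Aqp9, an aquaglyceroporin gene 330 kb away that passed through the knockout alone, was 0.298 and 10.1.

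Adam12 (ENSMUSG00000054555, chromosome 7, 133883199 to 134232146, minus strand) and Adam19 (ENSMUSG00000011256, chromosome 11, 46055992 to 46147343, plus strand) had 0 reads in both libraries. With 3 reads as the limit, a count of 0 allows a level of up to 0.0745 (control) or 0.0713 (knockout). Both genes have long transcripts, 7675 and 6383 bases for the longest. At this depth the meltrin alpha and beta transcripts were not detectable in either library.

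**Figure D2:**
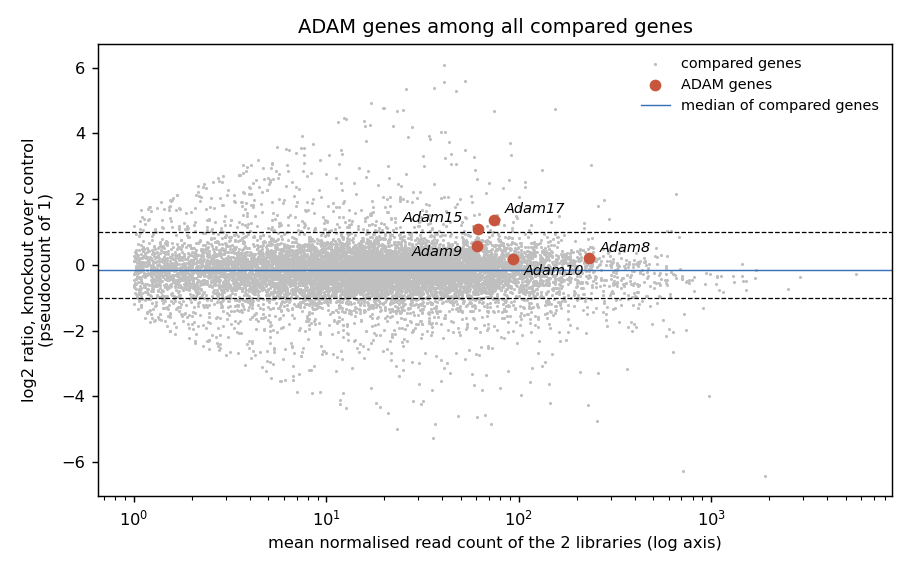
Log2 ratio of knockout over control (pseudocount of 1) against the mean normalised read count of both libraries (log axis) for the 11126 compared genes (grey), with the 5 compared ADAM genes in red, dashed lines at 2-fold and the median of compared genes in blue. All 5 lie above the median line at -0.16, and Adam15 and Adam17 lie above the upper dashed line.

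Levels of different members can be set beside each other only per length, here per kilobase of the longest GENCODE transcript. Several transcripts are annotated per gene, 10 for Adam17, 13 for Adam15 and 4 for Adam10, and which were counted is not known. The order therefore depends on the length used, which the counting intervals do not cover. With the longest transcript the control order was Adam8 at 58.1, Adam10 at 19, Adam9 at 11.9, Adam15 at 9.99 and Adam17 at 9.21. The counting intervals of the last pair overlapped (9.50 to 10.5 and 8.77 to 9.66), which is not a test of their difference, and none was made. In the knockout the per-kilobase order was Adam8 at 67.8, Adam17 at 24.1, Adam10 at 21.6, Adam15 at 21.5 and Adam9 at 18.1. Adam17 thus had the lowest value in the control, close to that of Adam15. In the knockout Adam17 was directly below Adam8, and its interval (23.4 to 24.8) did not overlap that of Adam10. Adam10 and Adam15 could not be ordered there (20.9 to 22.3 and 20.8 to 22.2).

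Reads of the 7 genes together summed to a level of 429 in the control against 613 in the knockout, 1.43-fold higher (1.40 to 1.46). Adam8 supplied 49.7% of these reads in the control (48.9 to 50.4, exact Clopper-Pearson interval) and 40.6% in the knockout (39.998 to 41.2). Adam10 supplied 20.4% (19.8 to 20.96) and 16.2% (15.7 to 16.6). The share of Adam17 was 9.60% in the control (9.16 to 10.05) and 17.6% in the knockout (17.1 to 18.06), and that of Adam15 was 9.12% (8.70 to 9.56) and 13.7% (13.3 to 14.1). The share of Adam9 was 11.3% (10.8 to 11.7) and 11.9% (11.5 to 12.3). Its intervals overlap, which does not show that the shares are equal. The make-up of the expressed ADAM reads in the knockout thus held less Adam8 and Adam10 and more Adam17 and Adam15 than in the control.

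**Figure D3:**
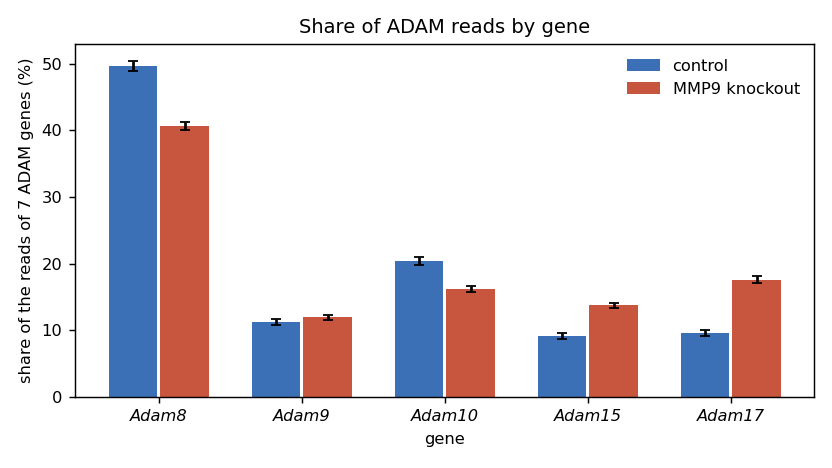
Share of the reads of the 7 ADAM genes held by each of the 5 genes with reads, in percent, for the control (blue) and the knockout (red), with exact 95% binomial intervals. The Adam17 bars stand at 9.60% and 17.6% and the Adam8 bars at 49.7% and 40.6%.

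Ratios between genes within a library do not depend on how the libraries were scaled. Adam17 had 0.472 reads per Adam10 read in the control against 1.09 in the knockout, a 2.3-fold difference (2.14 to 2.48). Against Adam8 the Adam17 ratio differed 2.24-fold (2.10 to 2.39), from 0.193 to 0.433. Adam8 and Adam10 kept nearly the same ratio to each other, 2.44 and 2.51, and the interval of its difference held 1 (0.974 to 1.08). Adam15 reads per Adam9 read were 0.811 and 1.15, 1.42-fold higher in the knockout (1.31 to 1.54). Adam15 reads per Adam17 read were 0.950 and 0.780, so Adam17 differed more than Adam15 did (ratio 0.821, 0.756 to 0.892). These pairs were chosen after the values had been seen. Within-library ratios are not centred by GC content. After that centring the log2 ratios were 0.53 for Adam8 and 0.16 for Adam10, and Adam15 (1.53) stood above Adam17 (1.42).

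No carrier of ADAM17 was past 2-fold. Of the 4 genes in this list all 4 were compared, with a median log2 ratio of -0.40, and from -0.42 to -0.06 over the alternatives. Rhbdf2, which encodes iRhom2, the main ADAM17 carrier in macrophages, was 18.6 in the control against 18.5 in the knockout (0.994-fold, 0.898 to 1.10). Its log2 ratio of -0.01 was above 0 under each of the 3 scalings and both centrings tried, up to 0.43. Rhbdf1, which encodes iRhom1, was 7.58 and 4.47, and Frmd8, whose product stabilises the iRhom and ADAM17 complex, was 25.5 and 17.7. Within a library, Adam17 reads per Rhbdf2 read were 2.21 in the control against 5.82 in the knockout, a 2.63-fold difference (2.34 to 2.96).

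Among the TspanC8 tetraspanins, the carriers of ADAM10, the number of lower genes varied with the processing. Of 6 genes 4 were compared, with a median log2 ratio of -1.25. Of the 4, 3 were lower by at least 2-fold, against 9.58% of all compared genes, and 0 higher. One of the 3, Tspan10, passed the filter through the control alone, and without it 2 of 3 were lower, with a median of -1.07. Over the full list the count of lower genes was 2 under each of the 3 scalings and with centring by length, 1 with centring by GC content and 0 with a pseudocount of 5, which pulls low genes towards 0. With a mean level of at least 5, 2 genes were compared, 1 was lower and the median was -0.70. Tspan14 was 34.7 and 15.9, 2.17-fold lower in the knockout (1.98 to 2.39). Its log2 ratio of -1.07 came within 2-fold under the 3 scalings, both centrings and a pseudocount of 5, at -0.93 to -0.80. The 1 gene left lower with centring by GC content was Tspan10. Tspan17 was 5.67 and 1.497, and Tspan10 was 4.15 in the control and a single read, 0.0238, in the knockout. Tspan5 was 25.1 and 19.9 and was within 2-fold, and Tspan15 was 0.0248 and 0.0475, below the limit of 3 reads in both. Adam10 reads per Tspan14 read were 2.52 in the control against 6.22 in the knockout, a 2.47-fold difference (2.23 to 2.74).

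Maturation and inhibition were represented by few expressed genes. Furin, a convertase that removes the prodomain of several ADAM proteins, was 61.6 and 31.2, 1.97-fold lower (1.84 to 2.11). It was just within the 2-fold line at a log2 ratio of -0.96. Pcsk7, a related convertase, was 18.4 and 22.6, and Pcsk4 was 1.29 and 0.784, while Pcsk5 had no read. None of the 3 compared convertases was past 2-fold. Among inhibitors Timp3, the strongest TIMP inhibitor of ADAM17, had no read in either library, and Timp1 had 0 reads in the control against 0.0238 in the knockout. Timp2 was 3.83 in the control against 0.0238 in the knockout, and it was the only 1 of 5 inhibitor genes that reached the level for comparison, through the control alone.

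Proteins cut by ADAM proteases did not follow one direction. Of 19 cytokine and receptor substrates 11 were compared, with a median of -0.32. Of the 11, 2 were higher by 2-fold or more, against 4.0% of all compared genes, 0 lower, against 9.58%, and 9 within 2-fold. The count of higher ones was 1 with a mean level of at least 5 and 3 with equal sums or centring by GC content, and that centring turned the median to 0.06. With no filter the median was 0. The higher ones were Tnf, the classical ADAM17 substrate, at 9.22 and 85.5 (9.27-fold, 8.33 to 10.3), and Cd40, a TNF receptor family member, at 0.646 and 9.31. Cd40 was under 1 in the control and passed the filter only through the knockout. Tnf stood 3.54-fold higher against Adam17 itself (3.13 to 4.01), at 0.224 reads per Adam17 read in the control against 0.793 in the knockout. The TNF receptor genes Tnfrsf1a (43.3 and 34.5) and Tnfrsf1b (19.7 and 21.2) were within 2-fold.

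Among 15 EGF family ligands and receptors 3 were compared. Hbegf, which encodes a ligand released by ADAM proteases, was 17.1 and 1.78, 9.61-fold lower (7.56 to 12.4), while Areg and Ereg had no read. Erbb3 was 5.54 and 6.51. Of 19 adhesion and other surface substrates 12 were compared, with 2 higher, against 4.0% of all compared genes, and 3 lower, against 9.58%. The list median was -0.41, which ran from -0.77 to 0 over the alternatives. One of the 2 higher genes, L1cam (0.447 and 2.66), passed through the knockout alone. The other passed in both libraries and had the largest log2 ratio of the list, 1.87. With equal sums 2 were higher and 2 lower. With a pseudocount of 5, or a mean level of at least 5, 0 were higher and 3 lower. Sdc1, which encodes the heparan sulphate proteoglycan syndecan-1, was 44.3 and 3.33, 13.3-fold lower (11.2 to 15.9), and Prnp, the prion protein gene, was 9.99 and 1.95. Cd44, the hyaluronan receptor gene, was 189.7 and 112.005, the adhesion molecule gene Icam1 was 90.1 and 77.4, and App, the amyloid precursor gene, was 50.7 and 68.03, each within 2-fold.

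Notch2, a receptor cut by ADAM10, was 156 in the control against 101.3 in the knockout, within 2-fold, and Notch1 was 0.224 and 0.855, below the level for comparison. The ligand gene Jag1 was 61.7 and 16.96, 3.64-fold lower (3.35 to 3.96), and it was the 1 of 3 compared genes of this list past 2-fold. All 7 gamma-secretase genes were compared, with a median of -0.43, and from -0.46 to -0.12 over the alternatives. Of the 7, 2 were lower, against 9.58% of all compared genes, and 5 within 2-fold. The lower ones were Aph1b (14.7 and 3.56) and Aph1c (17.3 and 4.68), near-identical copies between which reads can be split, so that neither value is certain on its own. Psen2, a catalytic subunit gene, was 14.2 and 10.3, and Ncstn was 88.2 and 72.2. Of the 7 Notch target genes none reached the level for comparison. Hes1 and Hey1 had 0 reads in the control and 1 read, 0.0238, in the knockout, and Nrarp was 0.0745 and 0.

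Integrins and cytoplasmic partners that bind ADAM proteins outside the protease domain were mostly not higher. Of 7 integrin chains 6 were compared, with a median of -1.18. Of the 6, 3 were lower, against 9.58% of all compared genes, and 0 higher. The lower genes Itga6 (5.54 and 0.879) and Itgb3 were under 1 in the knockout and passed through the control alone, and without them 1 of 4 was lower, with a median of -0.46. With a mean level of at least 5, 2 were lower and the median was -0.56, a pseudocount of 5 also left 2 lower, and 1 gene was higher with centring by GC content or with no filter. Itgav was 639 and 172.6, Itgb3 was 45.8 and 0.475, and Itgb1, the common beta chain, was 92.2 and 72.1. Itga9, which pairs with Itgb1 to bind disintegrin domains, had no control read and stood at 1.09 in the knockout, and its mean was below the level for comparison. Of 10 tail partners 8 were compared, 2 were lower, against 9.58% of all compared genes, and 0 higher. With each of the 3 scalings and with centring by GC content 1 was lower. Src, a kinase that binds ADAM tails, was 213 and 16.9, 12.6-fold lower (11.6 to 13.6), and the scaffold gene Sh3pxd2a, also called Tks5, was 49.3 and 21.6, 2.28-fold lower (2.11 to 2.47).

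**Figure D4:**
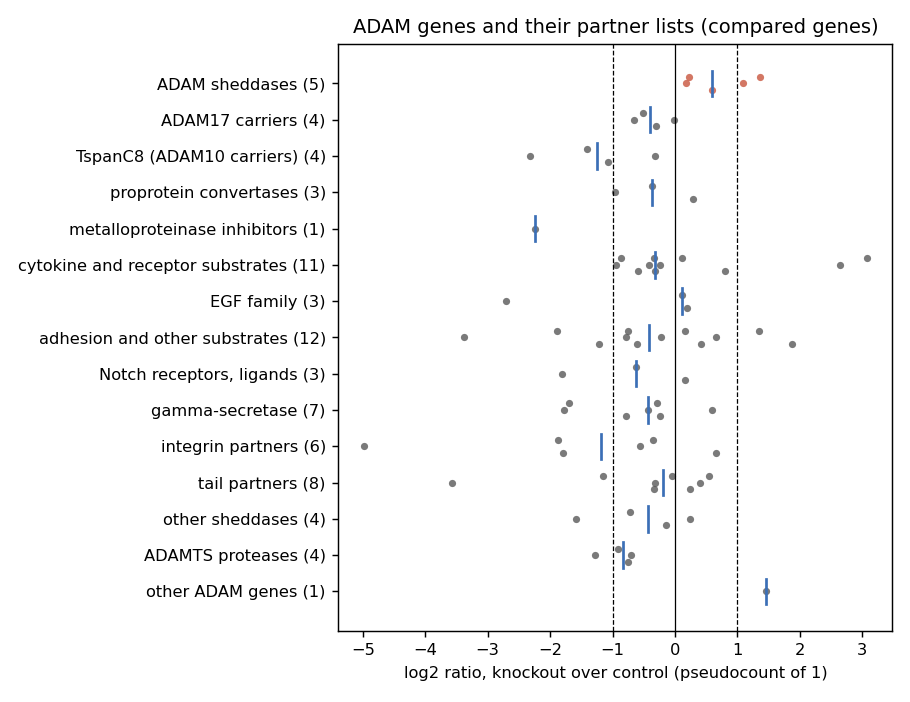
Log2 ratio of knockout over control (pseudocount of 1) for each compared gene of the ADAM sheddases (red) and of 14 other lists (dark points), with the list median as a blue bar, dashed lines at 2-fold and the number of compared genes in parentheses. The 5 ADAM genes lie between 0.18 and 1.37, and the 4 TspanC8 genes between -2.33 and -0.32.

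Relatives of the members were hardly expressed. Of 28 other ADAM symbols 27 were in the table, 15 had no read in either library and 1 reached the level for comparison. That was Adam3, a gene known from sperm, at 0.124 in the control against 2.09 in the knockout (16.8-fold, 6.94 to 53.1). It is the nearest compared gene on the lower side of Adam9, 224 kb away, and it passed the filter only through the knockout. Adam1a was 0.919 and 0.713. Of the 19 secreted ADAMTS proteases 4 were compared, with a median of -0.84. Of the 4, 1 was lower, against 9.58% of all compared genes, and 3 were within 2-fold. Over the alternatives the count of lower genes ran from 0 to 2 and the median from -1.04 to 0. The lower gene, Adamts14, was 1.96 and 0.214, 9.18-fold lower (4.60 to 20.8), and passed through the control alone. Adamts10 was 6.86 and 3.18. Adamts1 was 0.323 and 0.166, Adamts2 was 0.0994 and 0, and Adamts3 had no read. Among 4 compared sheddases and intramembrane proteases of other families, Mmp14, the membrane-type matrix metalloproteinase, was 2.81 and 0.261, 10.7-fold lower (5.78 to 22.1), and the 3 others were within 2-fold. Mmp14 passed through the control alone. With a pseudocount of 5, and with a mean level of at least 5, none of this group was past 2-fold. Bace1, the beta-secretase gene, was 9.72 and 8.65, Sppl2b was 12.2 and 6.94, and Bace2 had no read.

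Transcript GC content varies with the ratio in these libraries: over compared genes, which are not independent, Spearman's rho was -0.31. The longest transcript held 57.9% G or C for Adam15, 54.9% for Adam8, 46.6% for Adam9, 45.1% for Adam17 and 42.1% for Adam10. Among the members, Adam15 thus combined the highest GC content with the second-largest ratio. After centring in bins of GC content the log2 ratios were 1.53 for Adam15, 1.42 for Adam17, 0.61 for Adam9, 0.53 for Adam8 and 0.16 for Adam10, so Adam15 stood above Adam17 under this setting only among the 9 tried. Over all settings the log2 ratio of Adam17 ran from 1.29 to 1.65 and that of Adam15 from 1.01 to 1.53, each past 2-fold throughout.

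**Figure D5:**
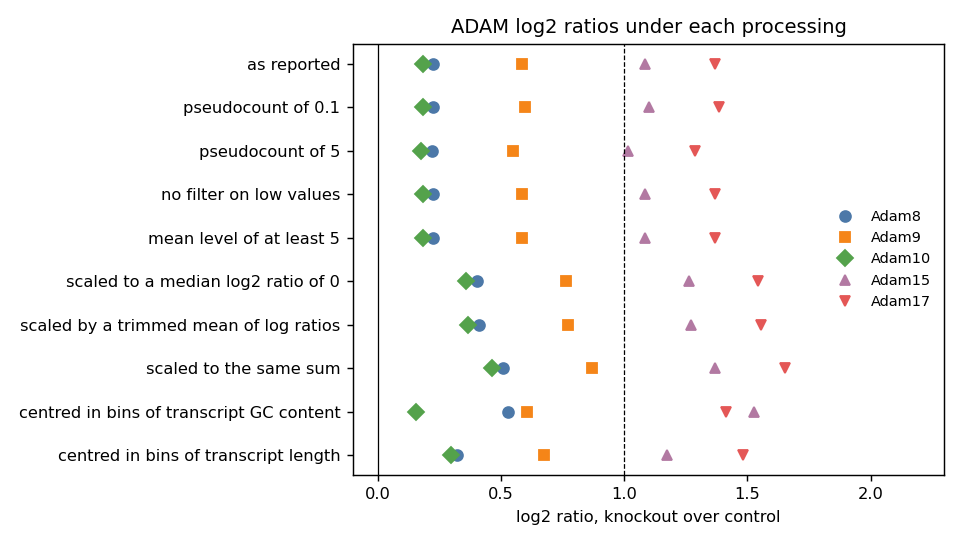
Log2 ratio of knockout over control for the 5 compared ADAM genes (a marker each) as reported and under 9 other ways of processing, with lines at 0 and at 2-fold (dashed). Adam15 and Adam17 stay right of the dashed line in every row and the other 3 left of it; Adam15 is closest to it with a pseudocount of 5, at 1.01.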

How the data were processed

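RNA of 1 control and 1 MMP9 knockout culture was sequenced from polyadenylated RNA on an Illumina instrument, per the labels' protocols. TopHat and the mouse build mm9 are named in the submitters' processing notes; the sources used here do not give versions, counting program, annotation or normalisation. The authors deposited log2 values titled as normalised RPKM. Converted back, 99.98% of control and 99.99% of knockout values with reads lay within 0.05 of a whole multiple of 1 step per library, the same for genes of any length, so they were treated as read counts times 1 factor. The lowest value, 0.9 of that step, was set to 0.

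Ratios, exact intervals and figures were made in Python 3.11.15 with scipy 1.17.1. Reading and interval steps were run on simulated counts written in the form that these steps assume. That checks the code only, and neither whether the deposited values are reads nor whether the intervals hold between cultures. Transcript length, GC content and positions came from GENCODE M21 on GRCm38, another build than mm9, and matched 23607 genes by Ensembl identifier. Named genes are the 7 members, Mmp9, the 2 other ADAM genes with the highest mean, and in the partner lists the first 3 genes and the 2 compared genes with the largest ratios; further genes were named after their values were seen, and some that the rule names are not reported here. Of 240 list entries 239 were in the table. Members and lists were chosen with earlier results of these data known.

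Values were recomputed with a pseudocount of 0.1 or 5, a minimum mean of 5 or none, 3 scalings of the knockout (a median log2 ratio of 0, a trimmed mean, equal sums), and ratios centred by GC content or by length (20 bins each).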

Additional observations from a re-analysis of the deposited data

How the results depend on the processing

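No paired analysis was possible because each group is a single library without a replicate number, and leaving one out was not possible either. The numbers of ADAM genes at least 2-fold higher (2) and lower (0) were the same under all 9 alternatives. Changing only the filter, lowering the pseudocount to 0.1 or scaling the knockout upward could not bring Adam15 or Adam17 within 2-fold. That could happen only with a pseudocount of 5 or with centring by GC content or by length. Under these the log2 ratio was 1.01, 1.53 and 1.17 for Adam15 and 1.29, 1.42 and 1.48 for Adam17. The median log2 ratio of the compared ADAM genes stayed above 0. It was 0.22 without a filter, where Adam12 and Adam19 enter at 0, 0.76 with the knockout scaled to a median of 0, 0.77 with a trimmed mean, 0.87 with equal sums and 0.68 with centring by length. These scalings shift the knockout upward by 0.18, 0.19 and 0.29 on the log2 scale, so they could only raise the members. Over all compared genes, 255 were at least 2-fold higher and 603 lower with a pseudocount of 5, a setting that pulls low genes towards 0, 674 and 684 with equal sums, and 681 were lower with centring by GC content, against 445 and 1066 as reported. Of 415 alternative values for the 47 compared genes chosen by the naming rule, 265 stayed within a band around the reported log2 ratio as wide as the counting interval of the fold, 150 left it, and 13 changed sign, in 5 genes that were within 2-fold (Rhbdf2, Bace1, Icam1, Pcsk4 and Tnfrsf1a). The 265 include every value from the 2 settings that change only the filter. These leave each ratio as it is, so their agreement was fixed in advance. At this depth Adam12, Adam19 and the 7 Notch targets had from 0 to 7 reads per library, too few to compare.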
